A study of Mus musculus with 2 samples.

Results

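Enterocyte-like medullary mimetic cells are the thymic epithelial cells (TECs) that express genes of the absorptive lining of the gut. They were identified here by a rule on measured levels and numbered 160 of the 8303 TECs kept, 79 of 3233 in the control library and 81 of 5070 in the irradiated library. A cell was a member when its Pigr, Prap1, Guca2b and Muc13 together reached at least 5 unique molecular identifiers (UMIs, each marking a captured RNA molecule) per 10000 UMIs of the cell. It also had to stay below limits on genes of other TECs: Aire below 5, Avil plus Trpm5 (tuft cells) below 5, Psmb11 plus Prss16 (cortical TECs, cTECs) below 15, Mki67 plus Top2a (dividing cells) below 4, and Gp2, Ccl6, Ccl9 and Ccl20 (microfold cells) together below 10. Because the rule and the earlier results behind it used these same libraries, the levels of the 4 rule genes describe the choice and are no finding. For the same reason no gene was tested between the rule cells and other cells.

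The thymus of female C57BL/6 mice was studied by droplet single-cell RNA sequencing, with 1 library per condition and 3 mice pooled in each. The irradiated mice received a sublethal dose of 5.5 Gy of gamma rays at 7 weeks of age and were analysed on day 15, when they and the untreated control mice were 9 weeks old. TECs were sorted as EpCAM+ CD45- TER119- cells, a gate that takes cortical and medullary TECs alike. The rule cells held 1200671 control and 1041960 irradiated UMIs. Their median was 13028 UMIs per control cell, from 4866 to 38651, and 12069 per irradiated cell, from 4043 to 36102. They carried slightly less mitochondrial RNA than the other kept cells, with a median of 4.54% against 6.00% in the control library and 4.10% against 5.99% in the irradiated library. The libraries shared 17 barcode sequences, 5 of them among kept cells and 0 among the rule cells.

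The deposit is at odds with itself on which library is which condition, and the assignment used here runs against its titles. The library titled as irradiated held 4937 barcodes, of which 3233 passed the filter, and the library titled as control held 7167, of which 5070 passed. Those numbers of kept cells are, to the cell, the control and the irradiated numbers that the study gives, and the names of the deposited files also run against the titles. The libraries were therefore called control and irradiated by the study's cell numbers, and every direction between them would turn round under the titles. Since each condition had 1 library, no difference between conditions has a replicate check and none was tested. The 95% intervals beside shares of cells are Clopper-Pearson (exact binomial), and those beside levels are exact Poisson ones. Both kinds take in nothing but counting error.

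Medullary TECs present antigens of many peripheral tissues to developing T cells, partly under the control of Aire. Some of them take on the gene programme of a particular peripheral cell type and are called mimetic cells, among them cells that resemble tuft, microfold, keratinocyte and intestinal cells. In the gut, absorptive enterocytes carry a brush border of microvilli with digestive enzymes and transporters, build lipoproteins from absorbed fat, pass antibodies into the lumen and secrete peptides against bacteria. The nuclear receptors HNF4A and HNF4G and the factors CDX2, KLF5 and ELF3 take part in that programme in the intestine.

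The 4 rule genes lie on 4 chromosomes of the mouse genome (build GRCm38, 1-based). Pigr encodes the polymeric immunoglobulin receptor, which carries IgA across the epithelium, and lies at chr1:130826684-130852249 on the plus strand. Prap1, a secreted protein of the gut and uterus rich in proline and acidic residues, lies at chr7:140093395-140097200 on the plus strand. Guca2b, which encodes the peptide uroguanylin, a ligand of guanylate cyclase C, lies at chr4:119656607-119658954 on the minus strand. Muc13, a transmembrane mucin of the apical surface, lies at chr16:33794037-33819934 on the plus strand. The stretches just upstream of their starts are shown because these genes chose the cells. They come from RefSeq on GRCm38.p6, leave out annotated exons and read 5′ to 3′ on the strand of the gene. Capitals mark CAAAGNNCA, a 9-base core of HNF4-type sites, searched on both strands, with no overlapping match.
Pigr, chr1:130826434-130826683, plus strand: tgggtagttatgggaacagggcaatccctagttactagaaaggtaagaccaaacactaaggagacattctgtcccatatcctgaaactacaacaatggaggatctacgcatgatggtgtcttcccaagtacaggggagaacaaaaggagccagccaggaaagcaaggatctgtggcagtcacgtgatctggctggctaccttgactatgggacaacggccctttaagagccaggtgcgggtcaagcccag
Prap1, chr7:140093146-140093394, plus strand: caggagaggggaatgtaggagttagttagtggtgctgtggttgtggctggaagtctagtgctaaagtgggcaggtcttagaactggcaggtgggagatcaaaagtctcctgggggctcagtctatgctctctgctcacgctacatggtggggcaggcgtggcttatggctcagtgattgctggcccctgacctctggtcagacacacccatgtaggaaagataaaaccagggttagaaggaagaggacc
Guca2b, chr4:119658955-119659195, minus strand: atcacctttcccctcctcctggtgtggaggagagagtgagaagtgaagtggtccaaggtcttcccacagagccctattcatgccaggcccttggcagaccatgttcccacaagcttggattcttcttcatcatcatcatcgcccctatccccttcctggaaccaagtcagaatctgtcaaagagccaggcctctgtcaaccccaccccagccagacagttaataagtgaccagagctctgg
Muc13, upstream of its start, chr16:33793787-33794036, plus strand: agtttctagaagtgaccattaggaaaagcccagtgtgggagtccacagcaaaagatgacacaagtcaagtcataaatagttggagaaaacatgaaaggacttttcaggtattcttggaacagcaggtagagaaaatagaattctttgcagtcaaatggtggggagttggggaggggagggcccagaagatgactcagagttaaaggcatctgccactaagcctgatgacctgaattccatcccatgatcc
Muc13, upstream of its other start, chr16:33794239-33794366, plus strand: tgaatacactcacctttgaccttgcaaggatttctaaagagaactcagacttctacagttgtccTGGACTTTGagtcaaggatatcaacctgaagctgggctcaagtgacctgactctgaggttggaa
Apoa4, chr9:46240594-46240695, plus strand: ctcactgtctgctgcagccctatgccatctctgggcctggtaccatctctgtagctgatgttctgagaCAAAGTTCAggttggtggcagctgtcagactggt

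These letters occurred once upstream of the other annotated start of Muc13, on the minus strand as TGGACTTTG and 186 bases before that start. No match lay in the printed stretches of Pigr, Prap1, Guca2b and the upstream start of Muc13. Apoa4, an apolipoprotein of intestinal lipid transport, is shown as a further match, CAAAGTTCA on the plus strand and 182 bases before its start, and was picked for that match. Over the 250 bases before each start, 1699 of 27025 genes in the RefSeq table (6.29%) held the letters. Among the 20 leading genes named below, 17 were in the table and 3 of these held them, namely Muc13, Ces2e and Saa3. A match of letters is a description and no evidence that a factor binds there.

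In the control library the rule cells were 2.44% of the kept cells (95% interval 1.94 to 3.04), and after irradiation they were 1.60% (1.27 to 1.98). The log2 ratio of the irradiated over the control share was -0.61, with a range from -1.26 to 0.03 when opposite ends of the intervals are combined. Combining the ends gives a wider range than a 95% interval of the ratio would, and the spread between mice was not measured. A sum of the rule genes of at least 5 per 10000 was met by 144 control and 161 irradiated cells. The limit on Aire then left 137 and 132, the limits on tuft, cortical and cycling genes left 132 and 126, and the limit on microfold genes left 79 and 81. Just inside the threshold the lowest sums were 5.14 in the control and 5.08 in the irradiated library, and just outside the highest were 4.78 and 4.99. Only 9 control and 8 irradiated members had a sum under 6, and 9 and 12 cells that met the other limits lay between 4 and 5. The members' median sum was 12.8 in the control and 14.9 in the irradiated library.

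The border with the microfold-like cells, which resemble the M cells that sample antigen over gut lymphoid tissue, was the least sharp. In the control library 132 cells met every other limit, and the microfold genes left out 53 of them (40.2%, 31.7 to 49.0). After irradiation they left out 45 of 126 (35.7%, 27.4 to 44.7). Seen from the other side, 53 of the 94 control cells chosen by those microfold genes (56.4%, 45.8 to 66.6) also reached 5 per 10000 of the enterocyte genes. In the irradiated library 45 of 106 did so (42.5%, 32.9 to 52.4). Among the rule cells themselves 37 control and 38 irradiated cells had no UMI of Gp2, Ccl6, Ccl9 or Ccl20, while 12 and 13 reached 5 per 10000 of them. The highest levels inside the limit were 8.87 and 9.58 and the lowest outside were 10.3 and 10.4, so cells lay on both sides close to the limit. The cells left out had median levels of 39.6 control and 61.1 irradiated UMIs per 10000.

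**Figure D1:**
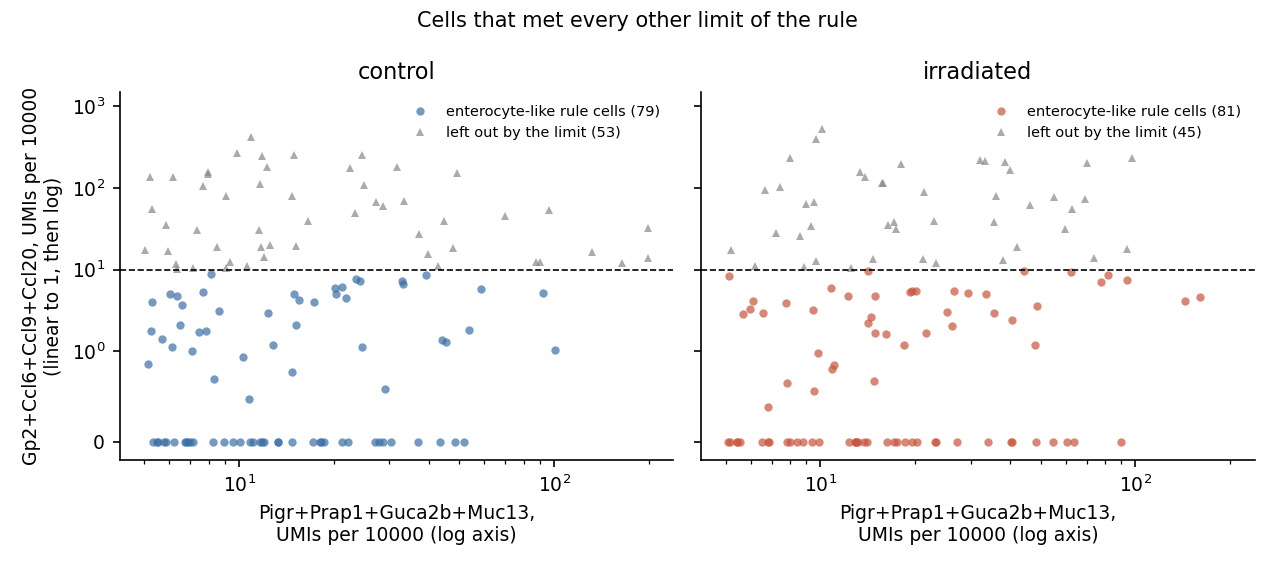
Sum of the 4 rule genes (x axis, UMIs per 10000 UMIs of the cell, log axis) against the sum of Gp2, Ccl6, Ccl9 and Ccl20 (y axis, same unit, linear to 1 and then log) in every cell that met the other limits of the rule, 132 control and 126 irradiated cells. Filled circles are the 79 and 81 rule cells, and grey triangles the 53 and 45 cells above the dashed limit of 10. Both kinds overlap on the x axis but end at different sums. In the control library the highest sum was 100.9 in rule cells and 198.9 in cells above the limit, and in the irradiated library 159.9 and 97.5.

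Pigr and Muc13 were the rule genes found in most of these cells, and Guca2b was confined to the fewest. Pigr stood at 6.29 UMIs per 10000 summed UMIs (5.85 to 6.75) in the control and 8.65 (8.09 to 9.23) in the irradiated library, with UMIs in 56 and 61 cells. Prap1 stood at 6.12 control and 7.81 irradiated, in 43 and 45 cells. Guca2b stood at 3.66 and 4.40, in 23 and 24 cells. Muc13 stood at 4.78 and 6.41, in 55 and 62 cells. In the other kept cells these genes were between 0.08 and 0.22 per 10000 in either library. The rule moves cells high in them out of that group, though cells that failed another limit stayed in it. The rule cells nevertheless held only part of the UMIs of each gene among all kept cells, namely 52.0% control and 59.0% irradiated for Pigr, 43.7% and 38.0% for Prap1, 28.8% and 36.6% for Guca2b, and 37.8% and 41.8% for Muc13.

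Ttr, which encodes the thyroid hormone and retinol carrier transthyretin, is the marker of the label that the rule did not use. Control rule cells held it at 9.09 per 10000 (8.56 to 9.64), and irradiated rule cells at 1.90 (1.64 to 2.18), against 0.12 and 0.22 in the other kept cells. Only 13 rule cells of each library had any UMI of it. A single control cell held 675 of 1091 UMIs (61.9%) and a single irradiated cell 103 of 198 (52.0%). Ttr was thus a gene of a few cells. Microfold rule cells held it too, at 1.19 control and 5.93 irradiated UMIs per 10000.

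cTECs, which should lack these genes, served as the measure of free RNA in the droplets, and the rule genes were found in very few of them. After thinning each cell to 4000 UMIs, Pigr was found in 62.0% of control and 66.7% of irradiated rule cells, without thinning in 70.9% and 75.3%. In the thinned cTEC rule cells, whose median depth before thinning was 19296 and 17356.5 UMIs, Pigr was found in 0 of 132 control and 0 of 342 irradiated cells. A limit of 3 counts of the total would allow shares up to 2.27% and 0.877% there, and the exact intervals reach up to 2.76% and 1.07%. Muc13 was found in 51.9% and 64.2% of thinned rule cells and in 0 thinned cTEC rule cells of either library. Without thinning, control cTEC rule cells held Muc13 in 4 of 132 cells and Pigr in 2, and irradiated ones held either gene in 0 of 342. For Prap1 the thinned shares were 48.1% and 51.9%, against 0.758% and 0% in cTEC rule cells. For Guca2b they were 21.5% and 24.7%, against 0% and 0.292%. The antibacterial lectin Reg3g, found in 58.2% and 60.5% of thinned rule cells, was found in 6.06% and 3.51% of thinned cTEC rule cells. Lypd8 was found in 64.6% and 64.2%, against 0% and 1.75%.

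**Figure D2:**
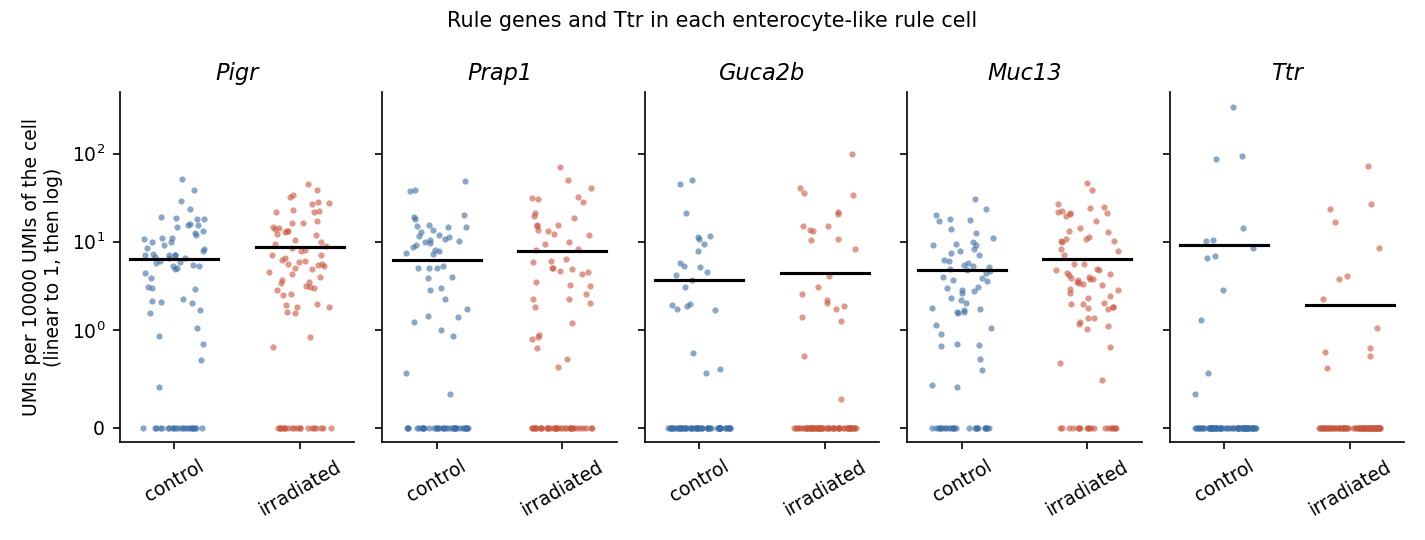
UMIs per 10000 UMIs of the cell (y axis, linear to 1 and then log) of Pigr, Prap1, Guca2b, Muc13 and Ttr in each of the 79 control and 81 irradiated rule cells (points). Black bars are the level over the summed UMIs of the library; the Ttr bar lies above most cells because 13 cells in each library hold all of its UMIs.

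Genes of the gut and liver were higher in the rule cells than in the other kept cells in most cases. Genes with enough UMIs numbered 4531, and a gene was called higher or lower when it differed at least 2-fold in the same direction in both libraries. Of all 4531, 558 (12.3%) were called higher and 390 (8.61%) lower. From 7 lists of gut and liver genes, 142 genes in all, 58 had enough UMIs, of which 45 were higher and 4 lower, and 4 genes of the lists had no UMI in the rule cells. Of those 58, 33 had enough UMIs only because they are abundant in the rule cells, which favours a difference. The 4 rule genes are among the 45 and among the 33, and the rule itself set their excess. The other 25 had enough UMIs over all kept cells at the members' depth, and 14 of them were higher and 4 lower. That count takes in the rule cells too, so they can still have helped a gene to pass.

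Of 17 genes for mucosal transport and secreted peptides 15 were higher and 0 lower, and among the 7 with enough UMIs over all kept cells 6 were higher. Their median log2 ratio over the other cells was 3.50 control and 3.70 irradiated, against 0.01 and -0.03 for all genes, but 4 of the 17 are the rule genes themselves. Reg3g, a lectin that kills Gram-positive bacteria, stood at 65.4 control and 87.8 irradiated UMIs per 10000, against 7.84 and 4.47 in the other cells. Lypd8, a surface protein that keeps flagellated bacteria off the colonic epithelium, stood at 35.9 and 53.7, against 2.30 and 1.77. Both genes had more UMIs than any rule gene and were high in both libraries. The acute-phase protein Saa3 was at 17.5 and 24.4, Saa1 at 9.59 and 6.46, and lysozyme Lyz1 at 5.11 and 3.45. Membrane mucins had fewer UMIs, with Muc1 at 2.44 and 2.32 and Muc3 at 0.90 and 1.70. The 2 genes that were neither higher nor lower were Reg3b and Saa2, which were more than 2-fold higher in the control library only.

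Of 11 brush border genes 9 were higher, with medians of 2.77 control and 2.53 irradiated, but 8 of the 11 had enough UMIs only through the rule cells, and 1 of the other 3 was higher. The whole list summed to 18.1 control and 19.4 irradiated UMIs per 10000, against 6.88 and 6.07 in the other cells. Tuft rule cells, at 18.0 and 18.9, and microfold rule cells, at 19.0 and 16.3, held similar sums. The summed level was thus not particular to the enterocyte-like rule cells. Villin (Vil1), which bundles actin in microvilli, stood at 1.59 control and 1.36 irradiated UMIs per 10000, against 0.14 and 0.10 in the other cells. The cadherins that link the tips of microvilli or join enterocytes were also higher, Cdhr5 at 1.22 and 1.69 and Cdh17 at 1.97 and 2.46. Slc9a3r1, a scaffold beneath the apical membrane, reached 4.00 and 4.46 against 1.32 and 1.32. Ezrin (Ezr), a linker of membrane and actin used by many epithelia, was at 2.73 and 2.49, next to 2.53 and 2.49 in the other cells, and espin (Espn) was also neither higher nor lower. Few digestive enzymes and transporters reached enough UMIs, 2 of 15 and 2 of 17. These 4 were higher, though all but S100g had enough UMIs only through the rule cells, namely sucrase-isomaltase (Sis) at 0.98 and 0.40, the protease Mep1a at 1.48 and 1.34, the bile acid exporter subunit Slc51b at 0.74 and 0.84, and the calcium-binding protein S100g at 6.23 and 2.17.

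Lipoprotein and lipid genes split, with 10 of 13 higher and 2 lower and medians of 2.52 and 3.17. Of these, 7 had enough UMIs over all kept cells, and 4 of the 7 were higher and 2 lower. Among the apolipoproteins, Apoc2, the cofactor of lipoprotein lipase, stood at 9.84 control and 6.97 irradiated UMIs per 10000 against 0.42 and 0.54. Apoa4 stood at 4.21 and 4.75, Apoc3 at 3.11 and 2.67, and Mttp, which loads lipid onto apolipoprotein B, at 1.10 and 0.90. Apoe went the other way at 2.11 and 2.68 against 12.9 and 9.85, and so did Fabp6, the ileal bile acid binding protein, at 0.15 and 0.13 against 0.69 and 0.60. Of 20 liver proteins 4 had enough UMIs and 3 of these were higher, among them Ttr and transferrin (Trf). Among the 2 with enough UMIs over all kept cells, Trf was higher and Spp1 lower. Trf reached 5.77 and 6.47 against 0.62 and 0.47.

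Of 9 transcription factors 4 were higher and 1 was lower, with medians of 0.92 control and 1.88 irradiated, the former short of 2-fold. Here 4 of the 9 had enough UMIs only through the rule cells, and among the other 5 there was 1 higher and 1 lower. The whole list summed to 13.3 control and 13.7 irradiated UMIs per 10000, against 6.13 and 4.72 in the other cells. Tuft rule cells held a similar sum of 14.9 and 13.9, so this level was not particular to the enterocyte-like rule cells either. The epithelial factor Elf3 was at 3.99 and 4.31 against 0.80 and 0.55, Klf5 at 1.85 and 1.41 against 0.37 and 0.25, and the vitamin D receptor Vdr at 1.24 and 1.21 against 0.32 and 0.26. Foxa1 was the remaining one called higher. Hnf4g had too few UMIs for a call but was found in 30 control and 26 irradiated cells at 0.35 and 0.34, against 0.07 and 0.05. Hnf4a and Cdx2 were also below that minimum, Hnf4a with 9 control and 19 irradiated UMIs in 5 and 8 cells and Cdx2 with 24 and 6 UMIs in 5 and 3 cells. In the guanylin pathway the ligand Guca2b, a rule gene, and the kinase Prkg2 had enough UMIs, both only through the rule cells. Prkg2 stood at 0.47 control and 0.47 irradiated against 0.05 and 0.04.

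Few antigen presentation and stress genes were called against the other kept cells, which pool unlike groups. Class II genes summed to 422 control and 404 irradiated UMIs per 10000. Cells with Aire at 5 or more per 10000 held 544 and 532 of them, and tuft rule cells 71.5 and 60.3. Early response and heat shock genes summed to 81.1 and 70.9, against 66.0 and 49.5 in those Aire-high cells and 133 and 107 in tuft rule cells. The class II invariant chain Cd74 stood at 173 control and 166 irradiated UMIs per 10000 against 163 and 158, and H2-Aa at 84.2 and 84.8 against 63.1 and 63.5. Of 11 class II genes with enough UMIs 1 was higher, the lysosomal protease Ctss. Among p53 targets 2 of 13 were higher, a share close to the 12.3% of all genes, namely the cell cycle inhibitor Cdkn1a at 3.69 and 6.77 against 1.56 and 2.15, and the pro-apoptotic Pmaip1, which had enough UMIs only through the rule cells, at 1.69 and 1.30 against 0.48 and 0.39. No early response or heat shock gene of 15 was called, and their median log2 ratio was -0.60 in the control and 0.30 in the irradiated library. In that list it was the other cells that differed most between libraries, for instance Fos at 10.1 and 3.71 there and at 6.70 and 4.90 in the rule cells. Of 13 interferon genes 0 were higher and 1, Gbp3, was lower.

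The 20 leading genes, ranked by the smaller of both libraries' ratios over the other cells, were Pigr, Tm4sf20, Gsta1, Prap1, Muc13, Sema4g, Tstd1, 2210407C18Rik, Car8, Hsd17b6, Cyp3a13, Lgals4, Guca2b, Lypd8, Ces2e, Vnn3, Saa3, Ces2c, Spink1 and Tmprss2. Of the 20, 4 are the rule genes, and 17 had enough UMIs only through the rule cells, all but 2210407C18Rik, Lypd8 and Saa3, so the ranking is a description. Gsta1, a glutathione transferase, stood at 2.30 control and 1.46 irradiated UMIs per 10000, with log2 ratios over the other cells of 5.03 and 5.06. The cytochrome Cyp3a13 stood at 1.17 and 2.67, and the carboxylesterase Ces2c at 4.29 and 3.93. Lgals4, a galectin of the gut epithelium, reached 5.48 and 8.88 against 0.32 and 0.19, and the uncharacterised 2210407C18Rik reached 17.0 and 25.6 against 0.88 and 0.67. Tmprss2, a membrane serine protease, was at 1.73 and 1.56, and the trypsin inhibitor Spink1 at 4.54 and 5.60.

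Against the microfold rule cells far fewer genes stood apart. Of the 4531 genes, 67 (1.48%) were at least 2-fold higher in the enterocyte-like rule cells in both libraries and 80 (1.77%) lower. Among the 58 gut and liver genes 3 were higher, namely Pigr, Tff2 and Espn, and 3 were lower, namely Lyz1, Fabp6 and Spp1. Pigr is a rule gene and stood at 2.82 control and 1.68 irradiated in microfold rule cells. Guca2b stood at 6.51 and 4.13 there, above the enterocyte-like cells in the control library and close to them in the irradiated. Lypd8 was at 33.7 and 23.5 in microfold rule cells, and Reg3g at 103 and 58.6, so Reg3g was higher there in the control library and lower in the irradiated. Lyz1 was at 25.4 and 20.9 in microfold rule cells. Against Aire-high cells, the medullary TECs with Aire at 5 or more per 10000, the contrast was wide again, with 736 genes (16.2%) higher and 360 (7.95%) lower.

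Markers of other TECs gave a mixed picture, and the rule set limits on some of them. Limited were Aire, Avil, Trpm5, Psmb11, Prss16, Mki67, Top2a, Gp2, Ccl6, Ccl9 and Ccl20. Lower levels of tuft, cTEC, dividing and Aire+ markers therefore describe the choice of cells in part and are no finding. Over 12 lists 40 markers had enough UMIs, of which 17 were lower than in the other kept cells and 5 higher. Of all 4531 genes 8.61% were lower and 12.3% higher, so the share of higher markers was close to that of all genes. All 5 tuft markers, 5 of 6 cTEC markers and all 4 markers of dividing TECs with enough UMIs were lower. So were 1 of 3 markers of Aire+ cells, namely Aire itself, and 2 of 4 of Ccl21a+ cells. Of 5 microfold markers 0 were lower or higher, and the microfold list summed to 3.83 control and 4.34 irradiated UMIs per 10000 against 4.82 and 4.09 in the other cells. Ccl21a, the chemokine of another medullary group, stood at 4.56 control and 4.96 irradiated against 31.8 and 34.1 in the other cells. The ciliated and pancreatic mimetic lists each had 1 gene with enough UMIs, which was neither higher nor lower, and the ionocyte list had 0. Among markers of keratinocyte, goblet and neuroendocrine mimetic cells 0 were lower and 5 of 11 were higher. Of the 11, 6 had enough UMIs over all kept cells, and 2 of these were higher, Dmkn and Krt10. Dmkn, of keratinocytes, stood at 3.16 and 3.45 against 0.81 and 0.55, Krt10 at 2.22 and 2.17 against 0.70 and 0.34, and Clca1, of goblet cells, at 2.61 and 1.01 against 0.22 and 0.05. The goblet list summed to 23.4 control and 18.6 irradiated UMIs per 10000, most of it Fcgbp, which was abundant in the other cells as well, while the goblet mucin Muc2 was found in 2 control cells and 1 irradiated cell.

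Genes of cells outside the TEC gate were mostly low in the rule cells. The 12 thymocyte genes summed to 0.72 control and 1.44 irradiated UMIs per 10000, against 1.88 and 2.34 in the other kept cells, with Cd4 and Cd8a at 0. Fibroblast genes summed to 0.61 and 0.29 against 3.06 and 1.70, with Pdgfra and Lum at 0. Erythroid genes were at 0 in the control and 0.02 in the irradiated library, against 0.09 and 0.18. Endothelial genes were low but above the other cells, at 0.23 and 0.36 against 0.09 and 0.05, with Cdh5 and Emcn at 0. B cell genes were also above them, at 1.11 and 0.45 against 0.38 and 0.38. Genes of dendritic cells and macrophages summed to 15.3 and 8.77 against 9.02 and 7.96 in the other kept cells, but Itgax, Flt3 and Adgre1 were at 0, and most of the sum was Lyz2 at 8.91 and 3.75 and Cst3 at 6.20 and 4.95. The part of Lyz2-positive cells of other kinds in the results was not tested.

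The rule cells were not a uniform population. Of the 4 rule genes 1 was detected in 38 cells, 2 in 56, 3 in 45 and 4 in 21, so that 122 cells (76.2%) had at least 2. The most frequent pattern was Pigr with Muc13 and no other, in 35 cells, followed by Pigr, Prap1 and Muc13 in 31. Deeper cells detected more, with median UMIs of 10535.5, 12700.5, 13533 and 16390 from 1 to 4 detected genes. Genes that the rule did not use were higher along the same order. The median cell held 9.37, 15.0, 20 and 29.9 UMIs per 10000 of brush border genes and 5.93, 8.18, 18.6 and 32.3 of lipoprotein genes. After every cell was thinned to 4000 UMIs the brush border medians were 10, 20, 20 and 27.5 in the 59, 59, 28 and 11 cells with 1 to 4 detected genes, and the lipoprotein medians were 5, 12.5, 20 and 45. Class II genes showed no such order at 262, 359, 396 and 359 per 10000.

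**Figure D3:**
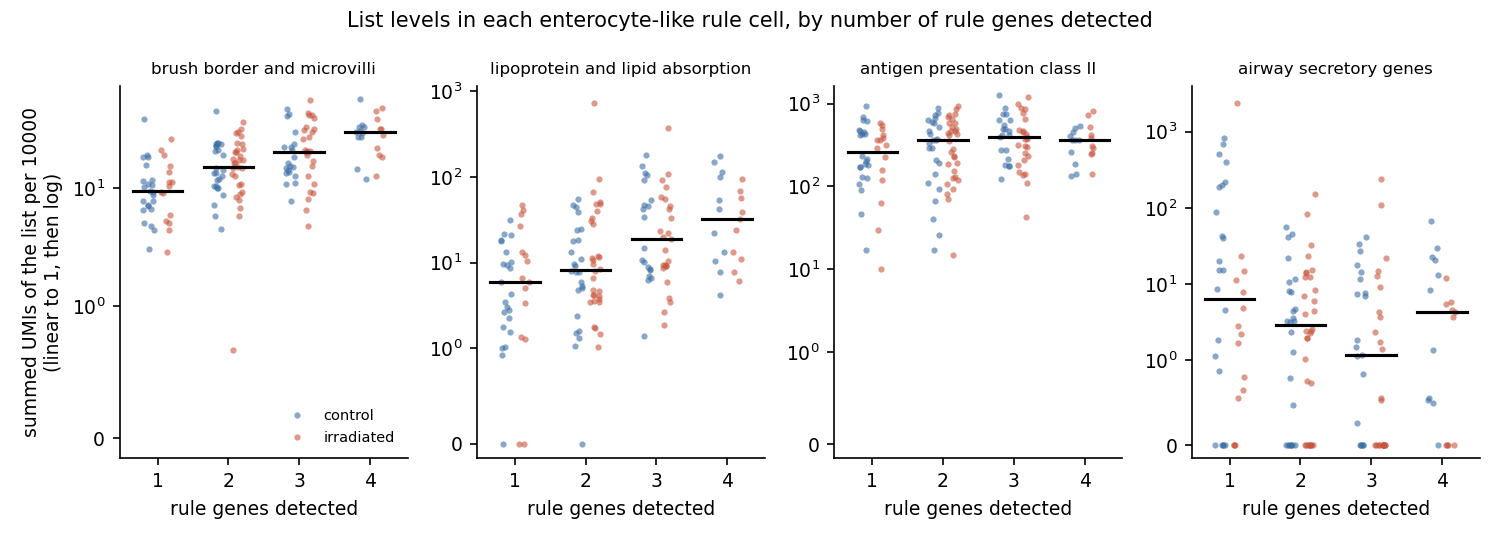
Summed UMIs per 10000 UMIs of the cell of 4 gene lists (y axis, linear to 1 and then log, a separate scale in each panel) in the 160 rule cells by the number of rule genes detected (x axis), with points for cells, control in blue and irradiated in red, and bars for medians. Brush border and lipoprotein medians climb from 9.37 to 29.9 and from 5.93 to 32.3, class II medians lie between 262 and 396, and airway genes have their widest spread in cells with 1 rule gene.

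Cells with Pigr as the sole rule gene went against the label. There were 20 of them, 12 control and 8 irradiated, and their summed brush border level was 8.63 UMIs per 10000 against 19.8 in the other 140 rule cells. Their lipoprotein level was 10.9 against 37.7, their Lypd8 1.96 against 48.6, and Apoc3, Sis, Slc51b, Myo1a and Ttr were at 0. All 38 cells with 1 rule gene, these 20 included, stood at 10.7 for brush border and 11.4 for lipoprotein genes. The low lipoprotein level was thus not particular to Pigr-only cells. A list of 12 secretory genes of the airway, drawn up after their values were seen, stood at 242 in Pigr-only cells against 10.9 in the other 140. The medians over cells were 32.7 and 2.32. The airway peptide Bpifa1 made up most of it at 143, with 7 cells detecting it. A single cell held 1841 of its 3055 UMIs, and without that cell Bpifa1 stood at 58.8 and the list at 160. Next came the protease inhibitor Wfdc2 at 74.3 in 14 cells. The club cell cytochrome Cyp2f2 stood at 13.1 in 10 of the 20 cells against 0.47 in the others, while Scgb1a1 and Scgb3a1, the defining secretoglobins of club cells, were at 0. Airway genes reached 10 per 10000 in 49 rule cells in all, of which 12 were Pigr-only cells. The Pigr-only cells had a median of 9840.5 UMIs against 13173.5 in the other rule cells, so some of the genes at 0 may have been missed at this depth. Pigr is known to be made by airway and glandular epithelia as well as by the gut.

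Cells led by different rule genes also differed in what else they held. Pigr had the most UMIs of the 4 in 64 cells, Prap1 in 41, Muc13 in 28 and Guca2b in 19, with ties in 8. The 19 Guca2b-led cells had the highest summed lipoprotein level, 58.0 UMIs per 10000, against 42.8 in Muc13-led, 23.6 in Prap1-led and 20 in Pigr-led cells. Summed class II genes were at 371 in Pigr-led cells and between 419 and 470 in the others, and the medians over cells were 189 and between 418 and 449. Over the 160 cells Lypd8 had a Spearman rho of 0.62 with Apoc2, 0.51 with Slc51b, 0.48 with Cdh17 and 0.41 with Vil1. Its rho was -0.31 with Cyp2f2, but only -0.06 with Bpifa1, -0.02 with Wfdc2 and -0.12 with Sftpd. These cells share 2 libraries and differ in depth, so the coefficients are a description. Pigr had rho values of -0.23 with Prap1 and -0.23 with Guca2b and of 0.24 with Muc13, but a rule on their sum lowers correlations among rule genes by itself. Aire, kept below 5 per 10000, had no UMI in 49 control and 48 irradiated rule cells, and the medullary factor Fezf2 was found in 57 and 45.

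Between the libraries most genes of the rule cells differed little. Of 3828 genes with at least 100 UMIs over the rule cells, 46 (1.2%) were at least 2-fold higher in the irradiated and 63 (1.65%) at least 2-fold lower. The median log2 ratio was -0.02 and the SD over genes 0.49, against 0.26 for the same genes in the far more numerous other kept cells. Many of the called genes rested on few cells. In 23 of the 46 higher genes (50%) and 13 of the 63 lower ones (20.6%) a single cell held at least 50% of the UMIs of the higher library. Without the top cell of each library 34 of the 46 and 47 of the 63 stayed past 2-fold. Of the higher genes 0, and of the lower genes 8, were also 2-fold different in the same direction in the other kept cells.

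The 10 genes with the highest ratios were Dppa3, Tac1, Cnfn, AI506816, Krtdap, Prg2, Krt4, S100a9, Timp1 and Psors1c2. Dppa3, a germ cell gene, had 2 control and 359 irradiated UMIs, the latter in 8 cells of which 1 held 184. Tac1, a neuropeptide precursor, had 6 and 357 UMIs, the latter in 10 cells. The skin genes Cnfn and Krtdap and the squamous keratin Krt4 each lay in 3 or 4 irradiated cells. The 10 with the lowest ratios were Reg3b, Sbp, Ly6g, Muc5b, Cyp2f2, Saa2, Mgll, Ttr, Tac2 and Cdkn1c. Reg3b, a relative of Reg3g, had 1162 control UMIs, 982 of them in 1 cell, and 15 irradiated UMIs. All 112 control UMIs of the airway mucin Muc5b were in 1 cell. Cdkn1c, a cell cycle inhibitor, was found in 27 control and 25 irradiated cells, at 7.50 and 1.67 UMIs per 10000 (log2 ratio -2.16, range -2.48 to -1.86). Without the top cell of each library its ratio was -1.86.

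**Figure D4:**
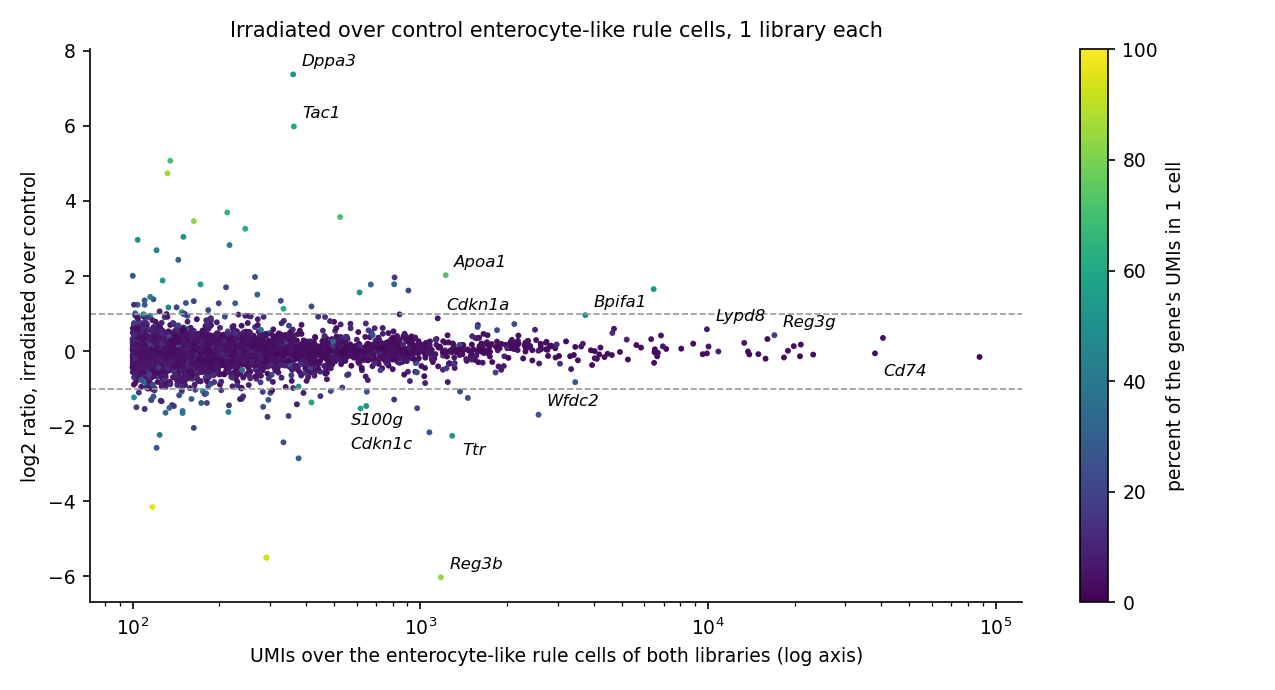
Log2 ratio of irradiated over control UMIs per 10000 in the rule cells (y axis) against the gene's UMIs over the rule cells of both libraries (x axis, log axis) for 3828 genes, coloured by the percent of the UMIs held by 1 cell. Dashed lines mark 2-fold; the most extreme points, such as Dppa3 at 7.37 and Reg3b at -6.02, have few UMIs or a high share in 1 cell.

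Gut and liver genes showed no common direction between the libraries. Of 54, 3 were higher in the irradiated, namely Apoa1, Fabp1 and Tff2, and 5 lower, namely Reg3b, Saa2, Sis, S100g and Ttr. Both shares were above those of all 3828 genes, 1.2% higher and 1.65% lower. The rule genes Pigr, Prap1 and Muc13 had log2 ratios of 0.46 (0.26 to 0.66), 0.35 (0.15 to 0.56) and 0.42 (0.19 to 0.65), and Guca2b one of 0.26 (-0.01 to 0.53). The ratio of Prap1 was 0.09 without the top cell of each library. Lypd8 had 0.58 (0.50 to 0.66) and Reg3g 0.42 (0.36 to 0.49). S100g was lower at 2.17 against 6.23 (log2 ratio -1.52, -1.82 to -1.23). The level of Apoa1 was 2.25 control and 9.16 irradiated, but 890 of the 954 irradiated UMIs were in 1 cell and the log2 ratio without the top cells was -1.35. Of the 219 irradiated UMIs of Tff2, 204 were in 1 cell. For Ttr the ratio was -2.25 (-2.55 to -1.97), and -1.92 without the top cells.

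Among p53 targets, which DNA damage induces, 0 of 13 passed 2-fold. Cdkn1a had the highest ratio of that list, 3.69 control and 6.77 irradiated UMIs per 10000 (log2 ratio 0.87, 0.63 to 1.12), and was found in 61 and 64 cells. In the other kept cells its ratio was 0.46, and in microfold rule cells it stood at 6.63 and 9.31. The p53 antagonist Mdm2 was at 1.42 and 1.95 (0.45, 0.03 to 0.88). Of the class II, early response and interferon lists 0 genes passed 2-fold in either direction. In the airway list, drawn up after its values were seen, 4 of 5 genes were lower in the irradiated library and 0 higher. Over all 3828 genes 1.65% were lower and 1.2% higher, but the way the list was chosen leaves that comparison a description. Its most abundant gene there, Bpifa1, ran the other way at 11.6 control and 22.6 irradiated UMIs per 10000, and the list summed to 35.6 and 29.9. A single irradiated cell held 1841 of the 2350 irradiated Bpifa1 UMIs (78.3%), and without it Bpifa1 was at 4.92 and the list at 11.9 in the irradiated library, both below the control values. Wfdc2 was at 16.9 control and 5.22 irradiated UMIs per 10000 (-1.69, -1.88 to -1.51). Without the 20 Pigr-only cells, a setting added after the values were seen, the log2 ratio of Wfdc2 was 0.15 and that of Cyp2f2 was -0.53 instead of -2.85.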

How the data were processed

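TECs of 2 libraries, 1 per condition and each a pool of 3 mice, were analysed from deposited counts. The authors deposited unnormalized UMI counts per gene and barcode for barcodes called as cells, made with Cell Ranger (5.0.1 in the file headers, 5.1 per the labels) on mm10 (GRCm38) after trimming with Fastp. The labels name version 2 of the droplet chemistry and the study's methods version 3. The labels also give 4 weeks of age in a protocol and 9 weeks among the characteristics, the latter being the age at analysis. These differences were not resolved here.

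The study's filter was applied: genes found in at least 5 barcodes, under 15% mitochondrial UMIs, and more than 2000 and fewer than 7500 detected genes. It kept 3233 of 4937 control barcodes (65.5%) and 5070 of 7167 irradiated barcodes (70.7%), from libraries of 58185309 and 82201657 UMIs with 32285 listed genes. Doublets were limited only by the upper gene limit. Members were found by the rule on UMIs per 10000 of the cell. Levels are summed UMIs per 10000 summed UMIs, so a cell with many UMIs of a gene weighs heavily. Log2 ratios used 0.5 added UMIs, and their ranges combine opposite ends of the 95% intervals. Genes entered a comparison with at least 100 UMIs over the members or, against other cells, also with as many expected at the members' depth from all kept cells. Called means at least 2-fold. Shares of cells with a UMI used cells thinned at random to 4000 UMIs. A share of 0 is given with the limit of 3 counts of the total.

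The members, the 12 gene lists and the 19 marker lists were chosen with earlier results of these data known, and the airway list of 12 genes after its values were seen. Named genes were those of the rule, Ttr, the genes of the lists, the 20 with the highest smaller-of-both ratio over other cells among genes found in at least 25% of members, and the 10 highest and 10 lowest irradiated over control. Mx1 of the interferon list was not found by name, and some genes of the lists are not reported here by name. Separate entries that carry the same symbol, as for Ccl21a, were summed. Alternatives changed the rule's limits, the filter, the minimum of UMIs, the thinning, the summary over cells and the members or cells included. The computation of ratios between libraries was tested on simulated counts. These were Poisson sums per gene without single cells, so they cannot show what a cell with most UMIs of a gene does. Python 3.11.15, numpy 2.4.6, scipy 1.17.1, pandas 2.3.3 and matplotlib 3.10.9 were used.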

Additional observations from a re-analysis of the deposited data

Results flagged for a closer look

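Several genes had log2 ratios of irradiated over control in the enterocyte-like rule cells opposite to those in the other kept cells. With 1 library per condition these differences were not tested. Pigr had 0.46 in the rule cells and -0.72 elsewhere, and Muc13 had 0.42 and -0.59, but the rule moves cells high in these genes out of the other kept cells. Further leading genes with this pattern were Lgals4 at 0.70 and -0.72, 2210407C18Rik at 0.60 and -0.38, Lypd8 at 0.58 and -0.38, and the trypsin inhibitor Spink1 at 0.30 and -0.42. Ttr ran the other way, at -2.25 and 0.90. Reg3g, which is not a leading gene, had the pattern of Pigr. It stood at 65.4 control and 87.8 irradiated UMIs per 10000 in the rule cells, and at 7.84 and 4.47 elsewhere.

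The same opposition appeared for genes carried by few cells. Dppa3 had 7.37 in the rule cells and -0.14 in the others, Tac1 5.99 and -2.31, Cnfn 5.07 and -1.46, Krtdap 3.69 and -0.49, and Psors1c2 2.97 and -0.32. Their irradiated UMIs lay in 8, 10, 4, 4 and 8 rule cells.

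Barcodes that the filter left out also met the rule. In the control library 49 of 1704 did so (2.88%, exact 95% interval 2.13 to 3.78), and in the irradiated library 51 of 2097 (2.43%, 1.82 to 3.19). Their median depth was 1884 and 1901 UMIs, where 1 UMI of a rule gene is enough to reach 5 per 10000. Too few detected genes removed 46 and 49 of them, and 28 and 16 exceeded the mitochondrial limit.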

How the results depend on the processing

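The lower share of rule cells in the irradiated library kept its direction under 12 alternatives, with log2 ratios from -0.41 to -0.72. All 12 recount the same libraries, so they do not measure the spread between mice. Numbers of genes past 2-fold between libraries followed the minimum of UMIs, with 109 higher and 165 lower of 6466 genes at 50 UMIs, 20 and 33 of 1887 at 200 UMIs, and 13 and 21 of 1010 after thinning to 4000 UMIs, which tests fewer genes. Gut and liver genes higher than in the other cells numbered 26 of 37 after thinning, with 4 lower and 6.00% of all genes higher. They numbered 71 of 126, with 11 lower and 8.94% of all genes higher, with genes taken at 100 UMIs over all kept cells, which was added with the data in view. The log2 ratio of Prap1 was 0.094 without the 1% of members with most UMIs of it, that of Guca2b was 0.74 as a mean over cells, and that of Ttr was -1.89 as a mean over cells and -1.92 without the 1%. In each library the 1% is 1 cell, so both values without it repeat those without the top cells. Krtdap turned to -1.36 and Wfdc2 to 0.19 in cells with at least 2 rule genes. Wfdc2 was at 0.15 without Pigr-only cells, and without the top cells Apoa1 turned to -1.35 and Bpifa1 from 0.96 to -0.74, all chosen after seeing the data. Of 286 values of 29 named genes under the alternatives 44 moved and 4 reversed, the latter those just given apart from Bpifa1, which is not among the 29. No paired analysis was possible because each condition had 1 library.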
